A study of Caenorhabditis elegans with 9 samples.

Results

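The genes described here are the protein-coding Caenorhabditis elegans genes named msp, ssp, ssq or nspd followed by a number. They were found by name in the deposited gene table, which gave 57 genes of 46986: 31 msp, 12 ssp, 4 ssq and 10 nspd genes. Of these, 55 reached an FPKM of 1 in 3 or more libraries and were tested. FPKM is the number of sequenced fragments scaled to the length of the gene and the size of the library, so levels can be compared between genes of different length. The untested members were msp-32, with 1 read in FA replicate 1 and 0 in the other libraries, and nspd-8, listed at 0 in every library.

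Major sperm protein is the cytoskeletal protein of nematode sperm, which crawl on a pseudopod and have no actin-based motility. Its filaments push the pseudopod forward, and the same protein, once released from sperm, acts outside the cell as the signal that triggers oocyte maturation and contraction of the gonadal sheath. The genes are transcribed in the male germ line and, in hermaphrodites, during the larval period in which sperm are made, before the germ line switches to oocytes.

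The 9 libraries were made from whole animals, 3 for each of 3 groups. OP was the control, whose columns in the table are headed OP50, the name of the standard laboratory food bacterium. HFD was the high-fat condition, which the series title attributes to citrate, and FA was the same high-fat condition with farrerol, a plant flavonoid. Strain, sex, age, doses and times were not given in the sources used here, and no label says if replicates were separate cultures. The p-values therefore describe how these libraries spread, and that spread may be technical.

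The libraries held 17514542 to 21419867 reads on genes. The 57 members took 0.290% to 0.386% of the reads in OP, 0.147% to 0.170% in HFD and 0.0933% to 0.209% in FA. The 9 genes listed as marks of the male soma summed to 2.37 to 3.797 FPKM in every library, near 0 in all groups. In whole animals, fewer sperm-forming cells and less RNA per cell cannot be told apart.

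Many members are close copies of each other. All 31 msp genes have a single exon, 28 of them share a length of 384 bases, and no untranslated region is annotated for any of them. On the WBcel235 assembly 13 lie on chromosome II between 4785898 and 5810330, and 18 on chromosome IV in separate stretches of 9 genes each, 5055631 to 5316906 and 9689015 to 10143740. In the deposited descriptions 13 msp genes share 1 protein entry, 12 of them named in it (msp-19, msp-31, msp-40, msp-45, msp-50, msp-51, msp-53, msp-59, msp-65, msp-81, msp-113 and msp-142) and msp-64 not, and msp-10, msp-36, msp-56 and msp-76 share another. How the authors assigned reads that match several copies was not given in the sources used here. A single copy's value is therefore uncertain, and each family was also summed.

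The other families are built differently. The ssp genes encode small proteins that consist of a major sperm protein domain, and all 12 carry that domain in their description. The 4 ssq genes encode larger sperm proteins and have 3 exons each, with lengths of 963 to 1316 bases. The nspd genes encode nematode-specific peptides whose function is not established, from single exons of 213 to 222 bases. Of the 57 members, 32 had another member within 10000 bases and 48 within 100000 bases. Members of different families sit side by side on chromosome IV, where ssp-10 lies 1519 bases from ssq-1 and nspd-2 lies 2137 bases from msp-56.

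All families were lower in HFD and in FA than in OP. The msp genes summed to 5316, 7080 and 7048 FPKM in OP replicates 1, 2 and 3, to 2865, 3059 and 2738 FPKM in HFD, and to 3934, 1942 and 1492 FPKM in FA. Every HFD and FA library was below every OP library. The means were 6481 ± 1009 FPKM in OP, 2887 ± 162 in HFD and 2456 ± 1300 in FA (SD, n = 3 each), which is 2.24-fold lower in HFD and 2.64-fold lower in FA than in OP. The log2 difference of the msp sum from OP was -1.16 in HFD and -1.51 in FA, each with an exact two-sided permutation p = 0.10, the smallest that 3 libraries against 3 can give.

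The ssp sum was 436, 584 and 589 FPKM in OP, 257, 278 and 233 FPKM in HFD, and 294, 175 and 130 FPKM in FA. The ssq sum was 413, 655 and 547 FPKM in OP, 244, 271 and 274 FPKM in HFD, and 304, 168 and 136 FPKM in FA. For both, all OP libraries stood above all others. The log2 difference from OP was -1.05 for ssp and -1.01 for ssq in HFD, and -1.49 and -1.46 in FA, each at the smallest possible exact permutation p = 0.10.

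The nspd sum was 706, 809 and 923 FPKM in OP, 431, 429 and 354 FPKM in HFD, and 638, 257 and 218 FPKM in FA. FA replicate 1 came close to the lowest OP library here, at 78.5% of the OP mean against 54.8% to 60.7% in the other families. The log2 differences from OP were -1.001 in HFD and -1.29 in FA (exact permutation p = 0.10 each). The mean log2 ratio of the nspd to the msp sum was higher in HFD and in FA than in OP, but the libraries overlapped. Its log2 difference was 0.15 for HFD against OP (exact permutation p = 0.30) and 0.22 for FA against OP (exact permutation p = 0.20). In FA only replicate 2, at -2.9124, fell below an OP library, replicate 1 at -2.9106. With 3 libraries a group these tests do not show that the ratios were alike.

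**Figure D1:**
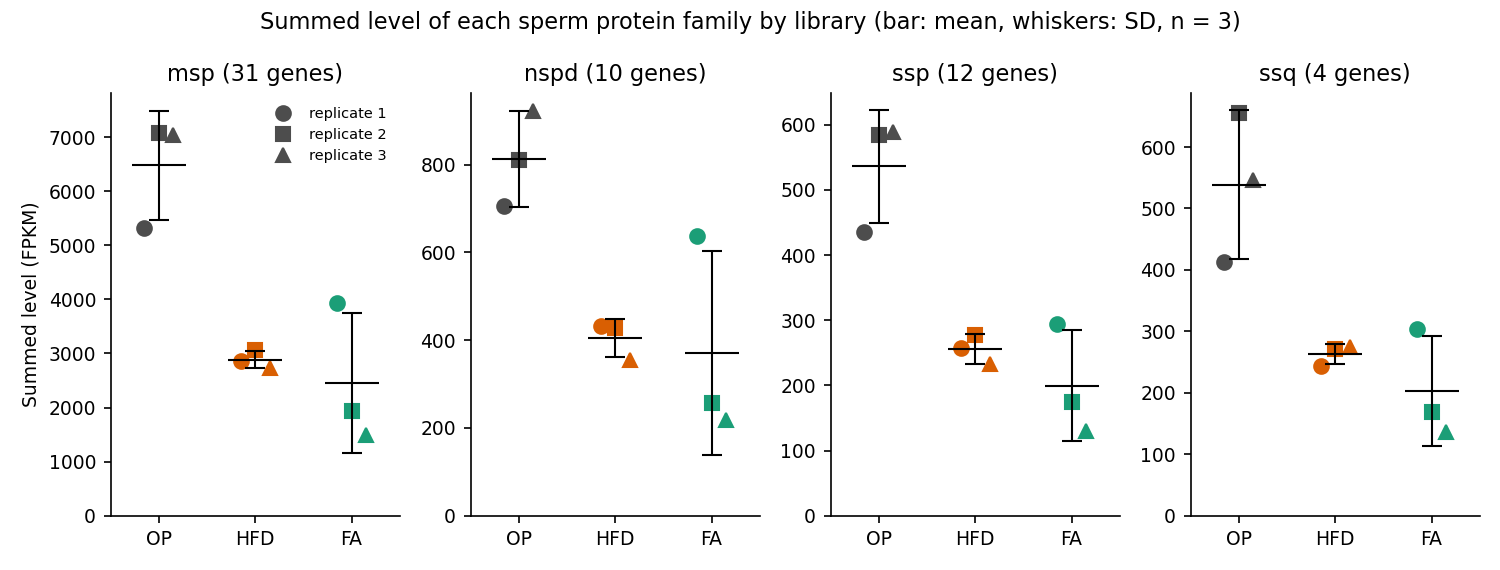
Summed FPKM of the msp, nspd, ssp and ssq genes on a linear axis from 0, by library, for OP, HFD and FA; symbols are replicates, bars the mean and whiskers the SD (n = 3). In every family all HFD and FA libraries lie below the OP libraries, and FA replicate 1 lies above the HFD libraries while FA replicates 2 and 3 lie below them.

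The high-fat condition was compared with the control gene by gene. All 55 members tested had a lower mean in HFD than in OP, and 26 of them fell at an adjusted p under 0.05 (limma on log2(FPKM + 1), Benjamini-Hochberg over 14730 genes), 47.3% of the members, while 4.62% of all genes tested were called lower. No member was called higher. The HFD libraries were all below the OP libraries for 50 of the 55 members, against 16.6% of all genes tested. The median log2 fold change was -1.12 over the 55 members and 0.01 over all genes tested.

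By family, 16 of 30 msp genes, 8 of 12 ssp genes, 1 of 4 ssq genes and 1 of 9 nspd genes were called lower in HFD. Among the msp genes not called, 13 had adjusted p-values between 0.0531 and 0.108, and the remaining one was msp-74 with 0.649. The count of 26 depended on single libraries. It was 0 without OP replicate 2 (45 members at an unadjusted p under 0.05) and 2 without OP replicate 3. Without HFD replicates 1, 2 and 3 it was 8, 6 and 6. It was 48 without FA replicate 1, which enters the shared estimate of spread and the filter on low values. The share of all genes called lower, 4.62% in the full fit, moved the same way in these fits. It was 0.761% and 1.15% without OP replicates 2 and 3. Without HFD replicates 1, 2 and 3 it was 2.82%, 1.22% and 2.5%, and without FA replicate 1 it was 6.83%. Every member tested stayed lower in HFD in each of these fits.

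**Figure D2:**
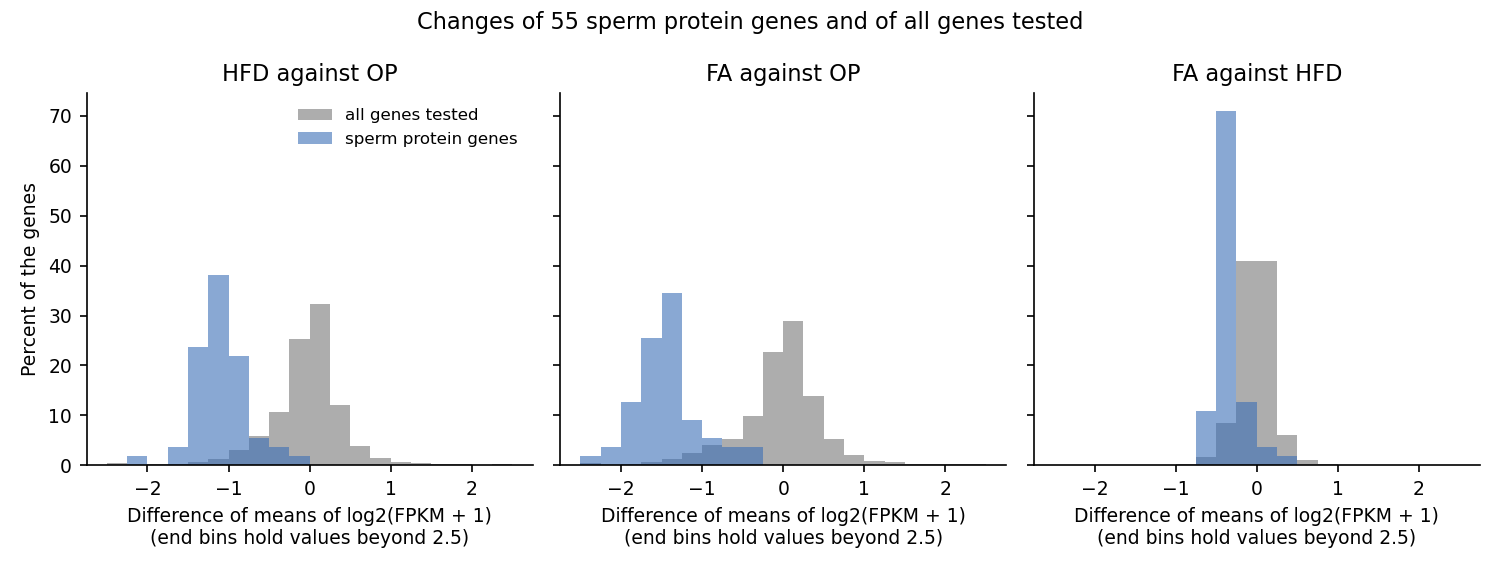
Percent of the 55 sperm protein genes (blue) and of all 14730 genes tested (grey) by difference of group means of log2(FPKM + 1), in bins of 0.25, for the 3 comparisons. The sperm protein genes centre on -1.12 in HFD against OP and on -1.47 in FA against OP, while all genes centre near 0.

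The msp genes of highest mean are described first. The level of msp-81 (WBGene00003467, chromosome IV, 9836034 to 9836417, minus strand) was 377, 484 and 487 FPKM in OP, 171, 201 and 186 FPKM in HFD, and 259, 131 and 89.3 FPKM in FA. The HFD and FA libraries did not reach the lowest OP library. The log2 fold change was -1.26 (SE 0.31, adjusted p = 0.0363) in HFD and -1.62 (SE 0.31, adjusted p = 0.00743) in FA.

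A second gene of high level, msp-36 (WBGene00003432, chromosome IV, 10095433 to 10095816), had 356, 492 and 496 FPKM in OP, 181, 197 and 180 FPKM in HFD and 231, 121 and 95.6 FPKM in FA. Its groups were separated in the same way, with a log2 fold change of -1.25 in HFD (adjusted p = 0.0250) and -1.66 in FA (adjusted p = 0.00419). On chromosome II, msp-31 (WBGene00003429, 4916179 to 4916562) had 361, 405 and 443 FPKM in OP, 193, 197 and 186 FPKM in HFD and 284, 120 and 100.2 FPKM in FA. The HFD log2 fold change was -1.06, where the adjusted p of 0.0679 missed the threshold, and -1.41 in FA (adjusted p = 0.0133). It overlaps the gene aagr-2 on the same strand, so some of its reads may be shared.

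The other msp genes among the 6 of highest mean were msp-40, msp-19 and msp-76. Their log2 fold changes in HFD were -1.05 for msp-40 (adjusted p = 0.0558), -1.02 for msp-19 (adjusted p = 0.0599) and -1.16 for msp-76 (adjusted p = 0.0258). In FA msp-40 had a log2 fold change of -1.39, msp-19 of -1.31 and msp-76 of -1.43, all called.

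The lowest p-values among the msp genes in HFD belonged to msp-65, msp-10, msp-38 and msp-78. The level of msp-10 (WBGene00003425, chromosome IV, 9837649 to 9838032) was 59.8, 74.2 and 70.9 FPKM in OP, 20.8, 20.8 and 24.5 FPKM in HFD, and 26.6, 15.6 and 9.72 FPKM in FA. Every HFD and FA library was far below the lowest OP library. The log2 fold change was -1.59 in HFD (SE 0.27, adjusted p = 0.00876) and -2.02 in FA (SE 0.27, adjusted p = 0.00196). It lies 1232 bases from msp-81 and shares its protein entry with msp-36, whose change was smaller by the values above; the difference between the copies was not tested.

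The gene msp-38 (WBGene00003434), which overlaps dhs-12 on the opposite strand, had 101, 153 and 143 FPKM in OP, 42.6, 43.8 and 43.1 FPKM in HFD and 53.4, 33.3 and 20.1 FPKM in FA. The 3 HFD libraries were nearly equal and lay far below OP, with a log2 fold change of -1.57 in HFD (adjusted p = 0.0110) and -1.95 in FA (adjusted p = 0.00293). The level of msp-65 (WBGene00003458) was 98.3, 137 and 127 FPKM in OP, 42.6, 40.5 and 44.3 FPKM in HFD and 53.2, 32.9 and 22.7 FPKM in FA. It had a log2 fold change of -1.47 in HFD (adjusted p = 0.00855) and -1.78 in FA (adjusted p = 0.00249). For msp-78 the log2 fold changes were -1.29 (adjusted p = 0.0181) and -1.78 (adjusted p = 0.00294).

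The msp gene of lowest level among those tested was msp-58, a short gene of 234 bases with 10, 13 and 17 reads in OP, 4, 5 and 6 reads in HFD and 6, 6 and 3 reads in FA. Its log2 fold change was -0.79 in HFD (adjusted p = 0.0638) and -0.78 in FA (adjusted p = 0.0415), on a scale that understates changes of low genes; the FA call was lost in 13 of 17 alternative fits. The other gene of 234 bases, msp-74, was picked after its values were seen. It had 11.8, 20.7 and 21.2 FPKM in OP, 18.4, 10.8 and 12.1 FPKM in HFD and 18.9, 7.22 and 6.30 FPKM in FA. Its groups overlapped, and it was the msp gene of smallest change in HFD, with a log2 fold change of -0.35 (95% interval -1.16 to 0.46).

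Summed by shared protein entry, the msp genes had HFD means that can be set side by side. The HFD mean was 0.461 of the OP mean for the 12 genes named in the largest entry, 0.495 for msp-64, which carries that entry without being named in it, 0.418 for msp-10, msp-36, msp-56 and msp-76 together, 0.471 for msp-55 and msp-57, and 0.441 for msp-77 and msp-79. By chromosome, the median log2 fold change in HFD was -1.09 over 12 msp genes tested on II, 4 of them called, and -1.18 over 18 on IV, 12 of them called; the difference between chromosomes was not tested.

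**Figure D3:**
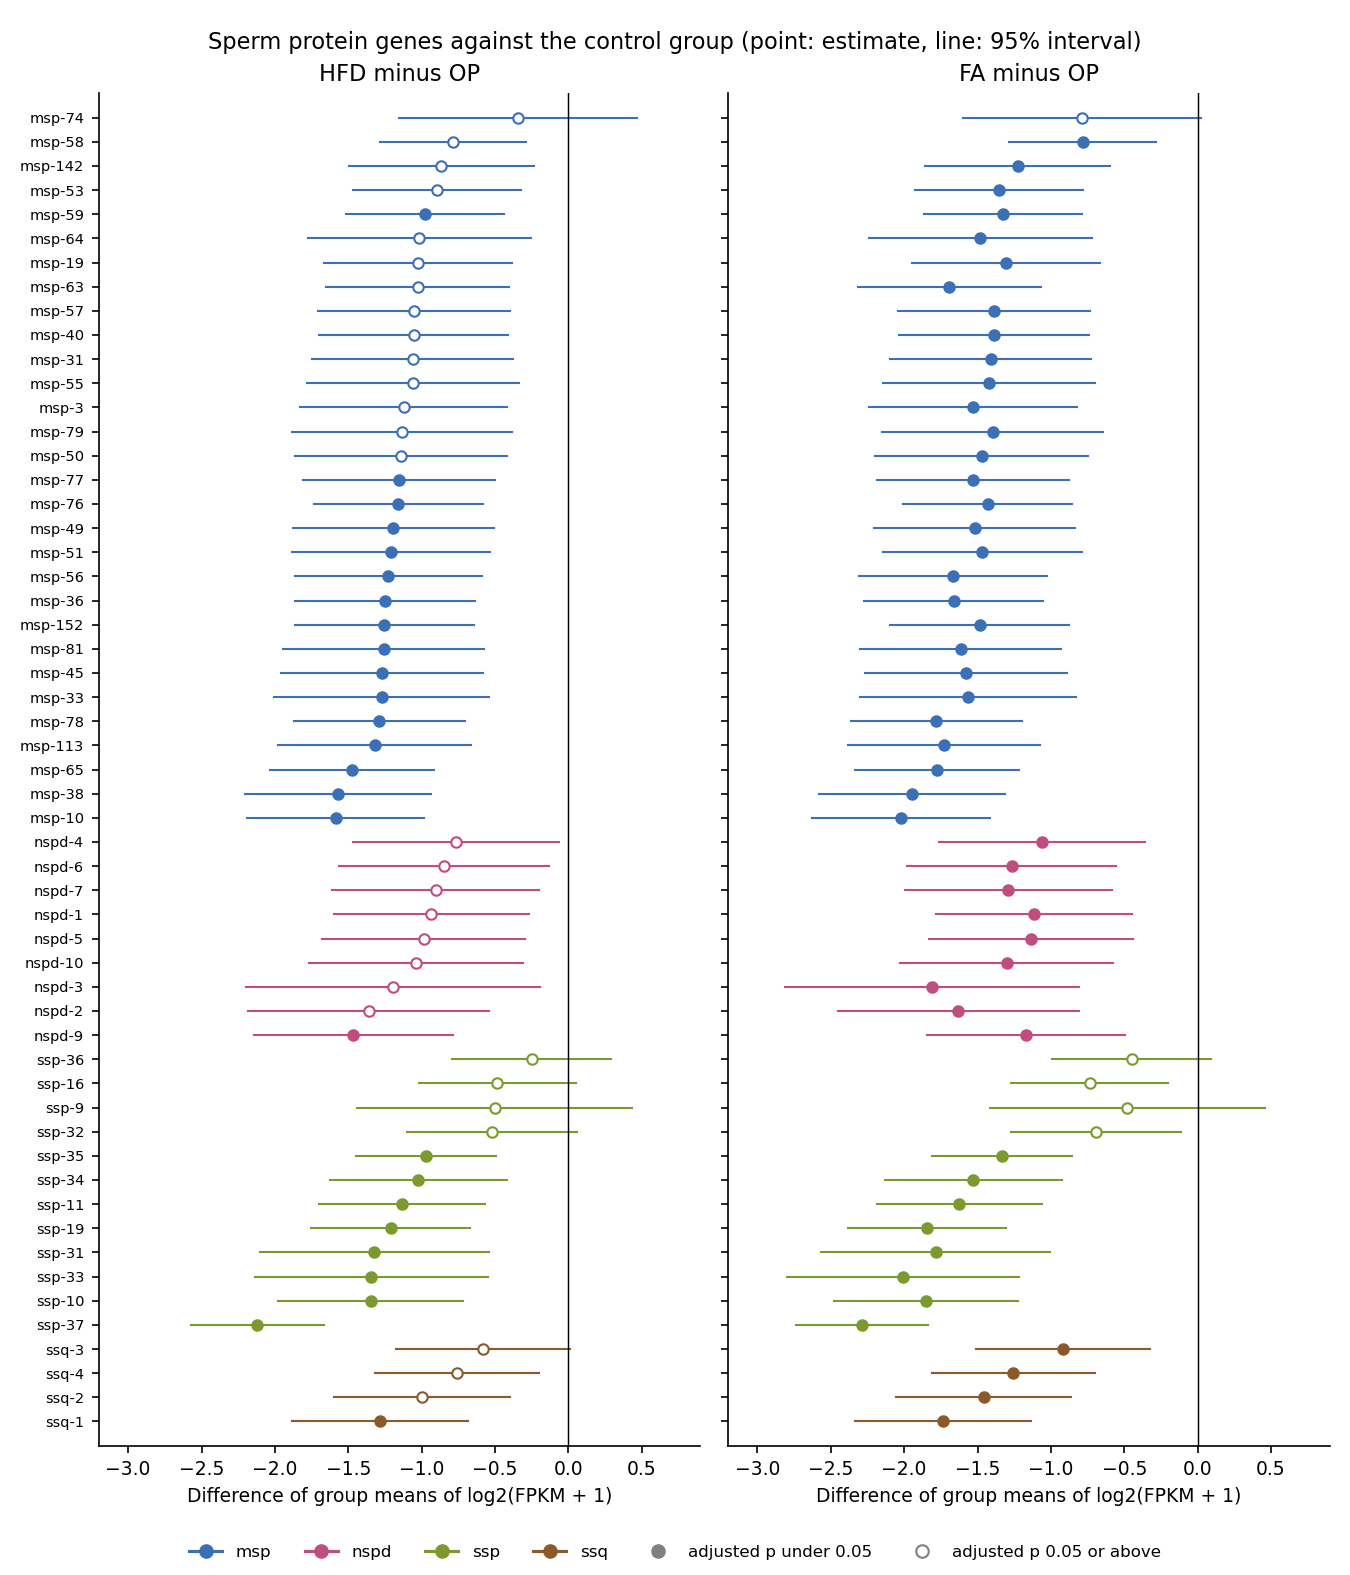
Difference of group means of log2(FPKM + 1) from OP for each of the 55 genes tested, with its 95% interval, for HFD (left) and FA (right); colours mark families and filled points an adjusted p under 0.05. All 55 estimates are below 0 in both panels, with 26 filled points for HFD and 50 for FA.

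Among the ssp genes, ssp-37 (WBGene00012211, chromosome I, 12561040 to 12561560, 2 exons) stood apart. It had 4.05, 4.27 and 5.81 FPKM in OP, 0.265, 0.225 and 0.426 FPKM in HFD, and 0.382, 0.125 and 0 FPKM in FA. In reads this was 39, 39 and 58 in OP, 2, 2 and 4 in HFD, and 3, 1 and 0 in FA. The mean level was 15.4-fold lower in HFD than in OP, and the log2 fold change on the log2(FPKM + 1) scale was -2.12 in HFD (SE 0.20, adjusted p = 4.9e-04) and -2.29 in FA (SE 0.20, adjusted p = 2.84e-04). The gene passed the filter only through its 3 OP libraries and was not tested when any of them was left out, so a difference was built into its selection.

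The most abundant ssp gene, ssp-10 (WBGene00006039, chromosome IV, 9850702 to 9851031), had 109, 144 and 158 FPKM in OP, 56.6, 53.9 and 47.7 FPKM in HFD and 62.3, 33.3 and 23.9 FPKM in FA. Its groups did not overlap with OP, and its log2 fold change was -1.35 in HFD (SE 0.28, adjusted p = 0.0205) and -1.85 in FA (SE 0.28, adjusted p = 0.00321). The level of ssp-19 was 13.9, 15.4 and 14.6 FPKM in OP, 7.05, 4.60 and 5.82 FPKM in HFD and 5.57, 2.22 and 2.89 FPKM in FA. It had a log2 fold change of -1.21 in HFD (adjusted p = 0.0171) and -1.85 in FA (adjusted p = 0.00177). The gene ssp-35 changed less, by -0.97 in HFD (adjusted p = 0.0251) and -1.33 in FA (adjusted p = 0.00378).

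A smaller set of ssp genes did not pass the test in either comparison. The gene ssp-16 had 64.5, 76.2 and 100.2 FPKM in OP, 54.1, 65.1 and 50.2 FPKM in HFD and 68.2, 44.9 and 33.9 FPKM in FA, so that its groups overlapped. Its log2 fold change was -0.49 in HFD (adjusted p = 0.279) and -0.73 in FA (adjusted p = 0.0687). The lowest member, ssp-9, had 10, 13 and 15 reads in OP, 14, 1 and 6 reads in HFD and 14, 5 and 2 reads in FA. Its libraries scattered within each group, and its interval was wide (log2 fold change in HFD -0.50, 95% interval -1.44 to 0.43). The remaining genes without a call, ssp-32 and ssp-36, were named after their values were seen, with log2 fold changes in HFD of -0.52 and -0.25.

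All 4 ssq genes had lower means in HFD and FA. The level of ssq-1 (WBGene00006050, chromosome IV, 9852550 to 9853609) was 150, 246 and 193 FPKM in OP, 70.8, 80.5 and 85.2 FPKM in HFD and 91.8, 48.4 and 41.7 FPKM in FA. No HFD or FA library reached OP, and the log2 fold change was -1.28 in HFD (SE 0.27, adjusted p = 0.0204) and -1.74 in FA (SE 0.27, adjusted p = 0.00322). The level of ssq-2 was 160, 241 and 209 FPKM in OP, 97.4, 98.5 and 104 FPKM in HFD and 119, 62.0 and 50.9 FPKM in FA. For ssq-2 the log2 fold change was -0.997 in HFD (adjusted p = 0.0511) and -1.46 in FA (adjusted p = 0.00645). The other two had smaller changes in HFD: -0.76 for ssq-4 (adjusted p = 0.101), which overlaps a gene on the opposite strand, and -0.58 for ssq-3 (adjusted p = 0.236). In FA both were called, at -1.26 for ssq-4 and -0.92 for ssq-3, but ssq-3 lost its call in 10 of 18 alternative fits.

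Of the nspd genes, nspd-1 was the most abundant, with 152, 163 and 198 FPKM in OP, 98.6, 92.0 and 76.0 FPKM in HFD and 142, 61.1 and 54.2 FPKM in FA. All HFD libraries were below OP, but the log2 fold change of -0.93 in HFD had an adjusted p of 0.0930, and the value in FA was -1.12 (adjusted p = 0.0317). The next in level, nspd-7, nspd-2 and nspd-6, had log2 fold changes in HFD of -0.90, -1.36 and -0.85, with adjusted p-values of 0.123, 0.0524 and 0.152. In FA these were -1.29, -1.63 and -1.27, all called.

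The nspd gene of lowest level, nspd-9 (WBGene00017808), was the only one called in HFD and the only member on chromosome III. It had 7.80, 11.9 and 10.9 FPKM in OP, 3.87, 2.81 and 2.45 FPKM in HFD and 7.44, 2.87 and 2.61 FPKM in FA. Its log2 fold change was -1.47 in HFD (SE 0.31, adjusted p = 0.0197) and -1.17 in FA (SE 0.31, adjusted p = 0.0282). The high value in FA replicate 1, close to that of OP replicate 1, set its FA mean above its HFD mean.

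Farrerol under the high-fat condition was compared with the control by the same fit; this comparison shares the OP libraries with the one above. All 55 members had a lower mean in FA than in OP, and 50 of them fell at an adjusted p under 0.05 (limma), 90.9% of the members, while 9.96% of all genes tested were called lower and no member was called higher. By family these were 29 of 30 msp genes, 8 of 12 ssp genes, all 4 ssq genes and all 9 nspd genes. The members without a call were msp-74, ssp-9, ssp-16, ssp-32 and ssp-36. The FA libraries were all below the OP libraries for 49 members, against 17.2% of all genes tested.

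The median log2 fold change in FA against OP was -1.48 over the msp genes, -1.58 over the ssp genes, -1.36 over the ssq genes, -1.27 over the nspd genes and 0.02 over all genes tested. The count of 50 was 52 without FA replicate 1, but fell to 27 without OP replicate 2, 31 without OP replicate 3 and 29 without FA replicate 2. The share of all genes called lower, 9.96% in the full fit, moved the same way. It was 12% without FA replicate 1, 4.37% and 5.22% without OP replicates 2 and 3, and 5.69% without FA replicate 2. The nspd calls were the least stable, with 0 of 9 left without OP replicate 2, OP replicate 3, FA replicate 2 or FA replicate 3.

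The effect of farrerol itself is the comparison of FA with HFD. No member passed the test in limma, 2 had an unadjusted p under 0.05 (msp-63 and ssp-19, both lower in FA), while 1.77% of all genes tested were lower at that level, and voom on reads recovered from the FPKM values also called 0 with 1 at an unadjusted p under 0.05. Of all genes tested, 0.00679% were called in either direction. The FA and HFD libraries overlapped for all 55 members, while 3.27% of all genes tested had every FA library below every HFD library. The mean of log2(FPKM + 1) was lower in FA for 52 of 55 members, the exceptions being msp-58, nspd-9 and ssp-9, and the median log2 difference was -0.36. The intervals were wide: for msp-81 the log2 difference was -0.36 with a 95% interval of -1.04 to 0.33, so a missed threshold does not show that the groups were alike.

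The FA libraries did not vary as 1 group. FA replicate 1 was above every HFD library for 46 of 55 members, while FA replicate 2 was below every HFD library for 51 and FA replicate 3 for 53. Of all genes tested, 20.3%, 30.1% and 30.3% had these placements, in that order. All 3 of these placements held together for 44 members, against 3.43% of all genes tested, a pattern chosen from these same values. In FPKM the order within FA was also shared. Replicate 1 was above replicate 2 and above replicate 3 for all 55 members, and replicate 2 above replicate 3 for 52. Of all genes tested, 52.1%, 51.3% and 49% had these orders. The 57 members took 0.0933% of the reads on genes in FA replicate 2 and 0.0938% in FA replicate 3. By this share replicate 2 was not above replicate 3, so their order depends on the library size used in the FPKM values. As a percentage of the OP mean, the median msp gene stood at 61.2% in FA replicate 1, 30.1% in replicate 2 and 22.1% in replicate 3, and at 41.01% to 47.7% in the HFD libraries.

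The exact permutation test of the family sums between FA and HFD gave log2 differences of -0.36 for msp (p = 0.40), -0.29 for nspd (p = 0.60), -0.44 for ssp (p = 0.40) and -0.46 for ssq (p = 0.40). Without FA replicate 1 these differences were -0.76, -0.77, -0.76 and -0.79, each with an exact p of 0.20, the smallest that 2 libraries against 3 gave. Without that library all 55 members were lower in FA than in HFD and 49 had an unadjusted p under 0.05, while 6.46% of all genes tested in that fit were lower at that level, but again 0 were called after adjustment. Without FA replicate 2 or without FA replicate 3, 0 members had an unadjusted p under 0.05 in limma. The family differences then were -0.25 for msp, -0.11 for nspd, -0.38 for ssp and -0.36 for ssq without replicate 2. Without replicate 3 they were -0.061 for msp, 0.0072 for nspd, -0.17 for ssp and -0.21 for ssq, and 39 of 55 members were lower in FA.

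**Figure D4:**
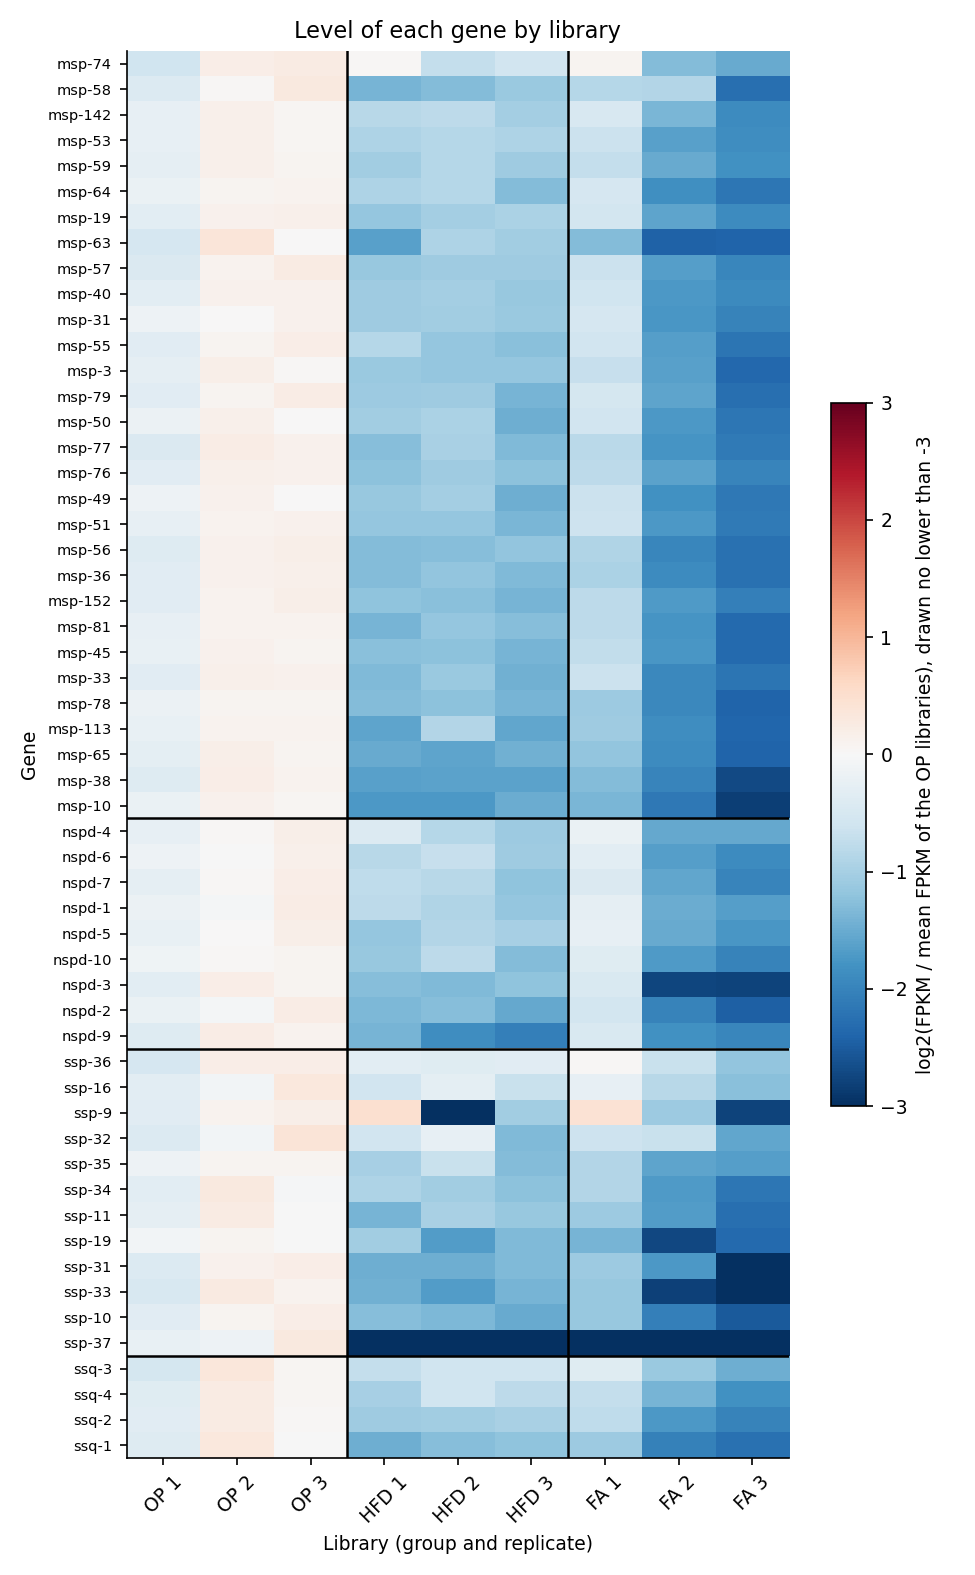
Level of each of the 55 genes tested (rows, by family and by change in HFD) in each library (columns), as log2 of the FPKM over the mean of the OP libraries; blue is lower and red higher, and values under -3 are drawn at -3. FA replicate 1 is paler than the HFD libraries and FA replicates 2 and 3 are darker for most genes, while ssp-37 is at the dark end in all HFD and FA libraries.

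Other genes of sperm were described from lists, chosen with earlier results of these data known. The counts called lower in these and the later lists stand beside 4.62% of all genes tested in HFD and 9.96% in FA. Counts called higher stand beside 403 of the 14730 genes tested in HFD and 679 in FA. Of the spe and fer genes, named for mutants with defective sperm, 26 were tested and all had lower means in HFD and in FA than in OP, but only 3 were called in HFD (spe-12, spe-26 and spe-15) and 10 in FA. Their median log2 fold change was -0.41 in HFD and -0.63 in FA. The gene spe-12, whose product is needed for spermatids to become motile, had 3.21, 3.72 and 3.41 FPKM in OP, 1.02, 1.10 and 1.70 FPKM in HFD and 1.57, 0.837 and 1.44 FPKM in FA. All HFD and FA libraries were below OP, and the HFD change was -0.98 (log2, adjusted p = 0.0165). The 3 calls in HFD were reduced to 0 when OP replicate 2 or 3 or HFD replicate 1 or 2 was dropped, and to 1 when OP replicate 1 was, and they became 6 when FA replicate 1 was. In FA the 10 calls were 3 and 4 with OP replicate 2 or 3 dropped, and 5 and 6 with FA replicate 2 or 3 dropped.

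The msp sum was also compared with the sum of the spe and fer genes. The log2 ratio of these sums had a mean of 4.22 in OP, 3.55 in HFD and 3.46 in FA, differences from OP of -0.66 and -0.76. All HFD and FA libraries were below the OP libraries in this ratio. Both had an exact permutation p of 0.10, the smallest possible with 3 libraries a group. Between FA and HFD the ratio differed by -0.09 (exact permutation p = 0.80).

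Genes for the assembly, motility and activation of sperm, which share spe members with the list above, included 16 tested genes. In HFD 13 had a lower and 3 a higher mean than in OP, and the counts were equal in FA. Of the 16, 2 were called lower in HFD and 7 in FA. The HFD count was 0 when OP replicate 2 or 3 or HFD replicate 1 or 2 was dropped, 1 when HFD replicate 3 or FA replicate 2 was, and 6 when FA replicate 1 was. The FA count was 4 when OP replicate 2 or 3 or FA replicate 2 was dropped. Among them gsp-4, a sperm protein phosphatase, had 65.6, 92.2 and 90.6 FPKM in OP, 43.2, 49.6 and 50.5 FPKM in HFD and 47.7, 33.1 and 27.8 FPKM in FA (log2 fold change in HFD -0.77, adjusted p = 0.0452, and in FA -1.19, adjusted p = 0.00434). The gene peel-1, which encodes a sperm-delivered toxin, had a log2 fold change of -0.71 in HFD (adjusted p = 0.0956) and -1.29 in FA (adjusted p = 0.00567).

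Genes named msd, for a major sperm protein domain, are outside the 4 families. Of 3 tested, 2 were called lower in HFD and all 3 in FA. When OP replicate 2 or 3 was dropped, 1 was called in HFD. The level of msd-1 was 51.7, 62.9 and 56.7 FPKM in OP, 15.2, 25.02 and 23.3 FPKM in HFD and 15.5, 14.2 and 7.89 FPKM in FA (log2 fold change in HFD -1.42, adjusted p = 0.00878). For msd-3 the log2 fold change was -1.66 in HFD (adjusted p = 0.0114), and for msd-4 it was -0.94 (adjusted p = 0.0696). A wider list of genes whose description names the domain, added after the data were seen and including the msd genes, had 51 tested genes, of which 10 were called lower in HFD and 27 in FA, with medians of -0.65 and -0.94. In HFD its count was 1 and 2 with OP replicate 2 or 3 dropped, 3, 2 and 4 with HFD replicate 1, 2 or 3 dropped, and 24 with FA replicate 1 dropped. In FA it was 17 with OP replicate 2 dropped.

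Other nematode-specific peptide families (nspa, nspb, nspc, nspe and nspf) were mixed in direction. Of 35 tested genes, 21 had a higher and 14 a lower mean in HFD than in OP, with 0 called by limma and 1, higher, by voom. In FA 3 were called higher, a count of 1 and 0 with OP replicate 1 or 2 dropped, 1 with FA replicate 1 dropped, and 6 and 5 with HFD replicate 1 or 3 dropped. Their sum was 752 to 819 FPKM in OP, 748 to 1177 FPKM in HFD and 908 to 1240 FPKM in FA.

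Among these peptides, nspa-8 had 5.79, 11.8 and 10.8 FPKM in OP, 1.71, 1.93 and 2.74 FPKM in HFD and 8.20, 1.61 and 1.24 FPKM in FA. Its HFD libraries were all below OP and its FA replicate 1 stood high, as in the nspd genes, but the HFD change of -1.70 (log2) had an adjusted p of 0.0524. In contrast, nspc-20 had 116, 122.5 and 124 FPKM in OP and 183, 164 and 150 FPKM in HFD (log2 fold change 0.45, adjusted p = 0.0506).

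Genes that decide sperm fate and sex went both ways. Of 18 tested, 0 were called lower in HFD and 1 was called higher by limma, and in FA 2 were called lower, among them fem-3 (log2 fold change -0.76, adjusted p = 0.0104), and 2 higher. The gene called higher in HFD was fog-3, which specifies that germ cells become sperm. Its level was 4.97, 6.19 and 6.79 FPKM in OP, 10.8, 10.2 and 9.77 FPKM in HFD and 10.8, 11.97 and 15.8 FPKM in FA. All HFD and FA libraries were above all OP libraries, with a log2 fold change of 0.70 in HFD (SE 0.16, adjusted p = 0.0314) and 0.98 in FA (adjusted p = 0.00432). Its HFD call was lost in 8 of 18 alternative fits, among them each that left out an OP or HFD library. Its partner fog-1 had 4.84, 6.46 and 7.21 FPKM in OP, 9.05, 9.35 and 9.999 FPKM in HFD and 8.46, 10.3 and 11.7 FPKM in FA (log2 fold change in HFD 0.56, adjusted p = 0.0725, and in FA 0.64, adjusted p = 0.0278).

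Genes through which the gonad responds to major sperm protein were mostly not called and went both ways. Of 22 tested, 3 were called lower in HFD (oma-2, inx-8 and inx-22) and 5 in FA, against 4.62% and 9.96% of all genes tested. In HFD 15 had a lower and 7 a higher mean than in OP, and in FA 11 were lower and 11 higher. The median log2 fold change was -0.14 in HFD and -0.02 in FA. With OP replicate 2 dropped 1 was called in HFD, and with OP replicate 2 or 3 or FA replicate 2 dropped 3 were called in FA. The gap junction gene inx-8, which acts in the sheath, had 23.3, 24.8 and 23.0 FPKM in OP, 12.4, 11.02 and 12.7 FPKM in HFD and 12.8, 8.68 and 12.8 FPKM in FA. All HFD and FA libraries were below OP, with a log2 fold change of -0.92 in HFD (SE 0.16, adjusted p = 0.00787).

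Markers of oocytes and the eggshell were lower in HFD and in FA, as the members were. The 21 oocyte and eggshell genes summed to 1289, 1942 and 1967 FPKM in OP, 842, 654 and 748 FPKM in HFD and 765, 448 and 475 FPKM in FA. Of these genes 17 were called lower in HFD and 19 in FA, with medians of -1.11 and -1.54, and the HFD count was 2 with OP replicate 2 or 3 or HFD replicate 2 dropped and 7 with HFD replicate 3 dropped. For perm-2, an eggshell component, the mean was 205 ± 25.5 FPKM in OP and 51.1 ± 13.9 FPKM in HFD (SD, n = 3 each; log2 fold change -2.01, adjusted p = 0.00669). In this list FA replicate 1 lay within the range of the HFD libraries, unlike its place in the sperm protein families.

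The 6 yolk genes, which the intestine of adult hermaphrodites expresses for the oocytes, summed to 1785, 2178 and 1417 FPKM in OP, 417, 74.0 and 103 FPKM in HFD and 332, 33.6 and 74.7 FPKM in FA. All 6 were called lower in both comparisons, with a median log2 fold change of -3.56 in HFD, and all HFD and FA libraries were below OP. The HFD count was 0 with replicate 2 of OP or of HFD dropped, 1 with replicate 3 of either dropped, and 2 with OP replicate 1 dropped, and the FA count was 3 with FA replicate 2 dropped. The sum of the general germline genes was 519, 684 and 724 FPKM in OP, 574, 555 and 590 FPKM in HFD and 595, 465 and 590 FPKM in FA, with 0 of 17 called in HFD by limma or voom and 1 in FA, a call lost in 6 of the 9 fits that dropped 1 library. Markers of muscle, pharynx, intestine, epidermis and neurons together summed to 1090 to 1374 FPKM in OP, 1396 to 1625 FPKM in HFD and 1293 to 1705 FPKM in FA. The part of these shifts in the members' results was not tested.

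**Figure D5:**
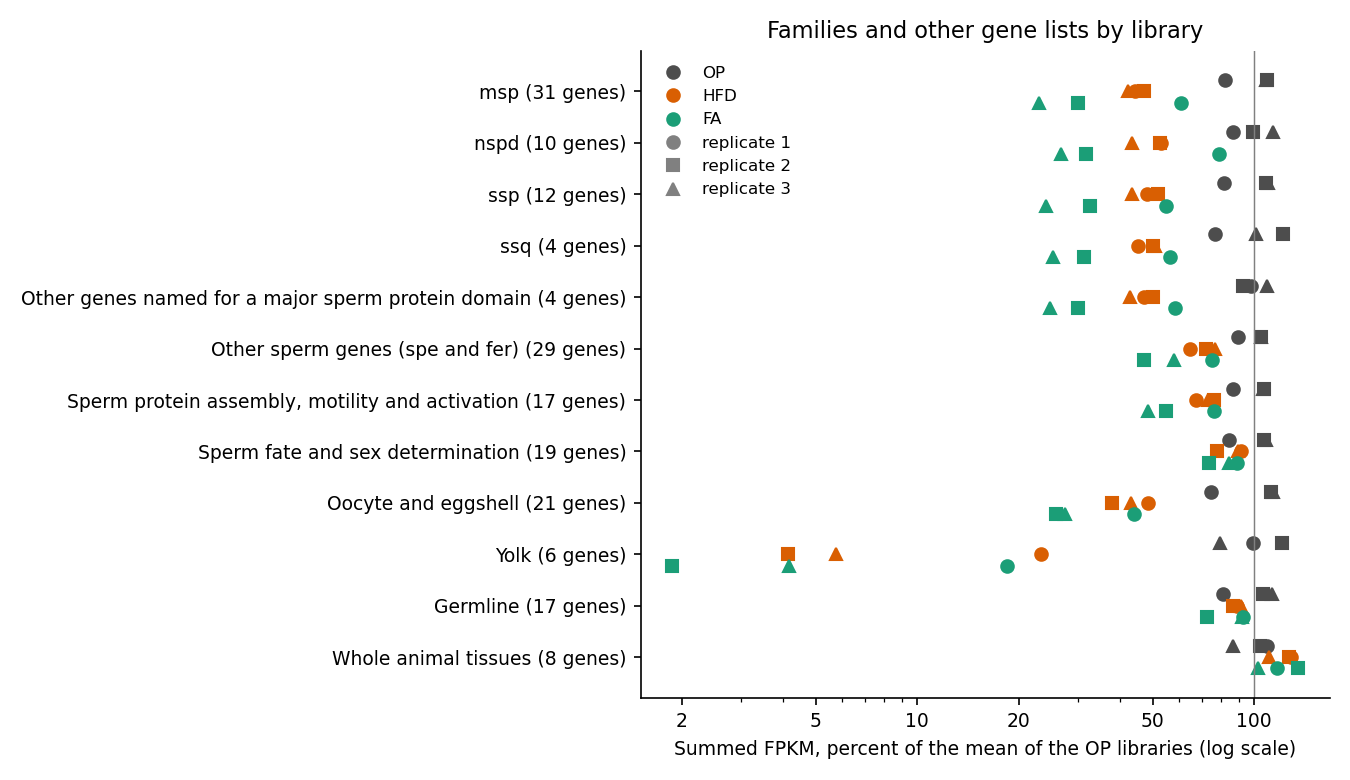
Summed FPKM of each family or gene list by library, as a percentage of the mean of the OP libraries, on a log axis; colours mark groups and symbols replicates. The 4 sperm protein families and the msd genes lie at similar places, spe and fer genes lie nearer to 100%, oocyte and eggshell genes lie near the families, yolk genes lie lowest, and germline genes lie at 72.3% to 92.7% in the FA libraries.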

How the data were processed

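Whole-animal RNA was sequenced in 9 libraries of 3 groups. Per the labels' protocols, RNA was extracted by a chloroform method and an NEBNext Ultra II RNA kit was used for library construction. The authors deposited 1 table of FPKM values, per the file headers, which also gives each gene's name, coordinates and biotype; the columns OP50 were assigned to samples OP of equal number. WBcel235 was the genome build, per the submitters' processing notes, while aligner, counter and strand setting were not given in the sources used here; overlapping genes can therefore share reads. All values above 0 were whole multiples of 1 read within 0.01 of a read, which gave the reads printed and 17514542 to 21419867 reads per library. The library size used in the FPKM values, recovered the same way, was not the number of reads on genes. It was 17748000 against 20056071 reads on genes in FA replicate 2, and 23047900 against 20166991 in FA replicate 3. Replicates differed by a chi-square of 16.6 to 75.3 per gene, more than sampling noise.

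The 14730 genes that reached an FPKM of 1 in 3 or more libraries entered 1 fit of 3 group means, made on log2(FPKM + 1) by limma 3.58.1 (R 4.3.3) with a mean-variance trend. Tests were two-sided, p-values were adjusted by Benjamini-Hochberg across the 14730 genes, and a call was an adjusted p under 0.05. A fold change on this scale understates the change of low genes. Family sums, as log2(sum + 1), and ratios of sums were compared with exact two-sided permutation tests in scipy 1.17.1. The limma fit was tested on simulated data with known changes. Gene structure came from Ensembl release 115.

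The members and lists were chosen with earlier results of these data known. Named members were those of highest and lowest mean FPKM and of lowest p in HFD against OP in each family, every ssq gene, any member called in FA against HFD and any whose change was opposite to its family's; of each list, up to 4 genes of lowest p in HFD against OP. Others are said to be chosen after their values were seen. The alternatives were other pseudocounts, filters, scalings, a count-based weighting (voom), only the groups compared, a replicate block, robust moderation and each library left out.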

Additional observations from a re-analysis of the deposited data

How the results depend on the processing

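The 55 members tested, or as many of them as passed each filter, were lower in HFD than in OP under every alternative. With no filter msp-32 also entered the fit, although it had 0 reads in every OP and HFD library. The number called in HFD against OP, 26 as reported, was 4 with no filter on low values and 16 with the replicate block. It was 44 with equal sums of FPKM, 49 when only the 2 groups were fitted and 38 with voom on recovered reads. Of all genes tested, 1.21%, 3.19%, 4.87%, 7.37% and 5.37% were called lower in these fits, in that order, against 4.62% as reported. Leaving out 1 library at a time gave 0 to 48 called members in HFD against OP, 27 to 52 in FA against OP and 0 in FA against HFD; under the other alternatives 35 to 51 members were called in FA against OP, where 50 were reported, and 0 in FA against HFD. The cause of these shifts was not tested. Same-numbered libraries of different groups had correlations of deviations from -0.23 to 0.30, and different-numbered ones from -0.24 to 0.18. The highest was between HFD replicate 1 and FA replicate 1. As these ranges largely overlapped, the replicate numbers were not taken as pairing the samples.

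Family sums kept their sign in HFD against OP and FA against OP under all alternatives, and no exact test could pass 0.05 with 3 libraries a group. In FA against HFD, leaving out 1 library moved the log2 difference of the nspd sum between -0.77 and 0.0072, of the nspd to msp ratio between -0.0063 and 0.14, and of the msp to spe and fer ratio between -0.32 and 0.19, with a change of sign in each. No pseudogene carried a matching name, so the alternative of adding pseudogenes gave no value. By the highest count in any library, depth limits ssp-9 and msp-58 most among the members tested, with at most 15 and 17 reads. In HFD and FA it also limits ssp-37, with 2, 2 and 4 reads in HFD and 3, 1 and 0 in FA.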
